A study of Mus musculus with 112 samples.

Results

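Mammary tumours of mice were divided by the measured level of 1 probe set of Pdxdc1, a gene of chromosome 16 that encodes a protein with a pyridoxal-dependent decarboxylase domain. The 33 Pdxdc1-high tumours read above 8.48 on the log2 scale on probe set 1419327_at, and the 19 Pdxdc1-low tumours read below it. The names high and low refer to this probe set only. On 1452705_at of the same gene the Pdxdc1-high tumours read lower, at a mean of 8.37 against 9.01. Whether the groups differ in the amount of Pdxdc1 RNA or in how it binds the probes was not tested. These 52 tumours were drawn from 56 tumours in the series, each hybridised to 2 single-colour Affymetrix arrays, MOE430A and MOE430B (112 arrays in all). Subline 23 and tumour 3 of subline 25 were left out, and on MOE430B also tumour 3 of subline 11, which gave 33 Pdxdc1-high and 18 Pdxdc1-low tumours there. The tumours of each group were chosen by their values on 1419327_at, and these values are therefore given as a description, with no test.

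All mice of both groups carried PyMT, a transgene of the polyoma virus middle T antigen behind the mouse mammary tumour virus promoter, which is active in mammary epithelium, and the tumours arose spontaneously. PyMT is a viral membrane protein that activates Src, Ras and phosphoinositide 3-kinase signalling. The mice came from crosses with AKXD sublines. AKXD sublines descend from AKR/J and DBA/2J mice and were each inbred separately, so a subline carries its own fixed mosaic of both parental genomes. The labels give each mouse a subline and an animal number, and no age, parental allele or treatment. No group of the series was a control for the other, and no labelled genotype at Pdxdc1 was used.

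Vitamin B6 enters enzymes as its active form, pyridoxal phosphate, which is bound by decarboxylases, transaminases and other enzymes of amino acid metabolism. Pdxdc1 belongs by sequence to the decarboxylases, and its substrate is not settled. A short oligonucleotide array reads a gene through several probe sets, each made of short probes at its own place in the transcript. Probe sets of a gene can therefore differ, and every probe set of the genes that were called is given.

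The tumours expressed mammary epithelial genes in both groups. Krt8, a luminal keratin, read 11.60 to 12.94 in Pdxdc1-high tumours and 12.40 to 12.81 in Pdxdc1-low tumours. Epcam, an epithelial adhesion molecule, read 12.32 to 13.29 in Pdxdc1-high tumours and 12.98 to 13.35 in Pdxdc1-low tumours. The median correlation of an array with the other MOE430A arrays was 0.970 to 0.991 in Pdxdc1-high tumours and 0.984 to 0.991 in Pdxdc1-low tumours. The 4 arrays left out stood apart, with a median correlation of 0.223 to 0.948. These are bulk samples, in which fewer cells of a type and less RNA per cell cannot be told apart.

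The start regions of the chromosome 16 genes Pdxdc1 and Bfar and of the chromosome 12 gene Zfp277 are shown because the probe sets described next belong to them. Bfar was called near Pdxdc1. Zfp277 on 1433953_at parted 51 of 52 tumours as Pdxdc1 did, though by a smaller difference (0.68, against 1.89 for Pdxdc1 on 1419327_at). Each holds 300 bases around the gene's start in RefSeq (GRCm38.p6), 5′ to 3′ on the gene's strand, at chr16:13903096-13903395 (minus strand) for Pdxdc1, chr16:13671608-13671907 (plus strand) for Bfar and chr12:40445741-40446040 (minus strand) for Zfp277. Capitals mark matches, on either strand, to the TATA box (letters TATAAA), the CCAAT box, the GC box (letters GGGCGG), the E-box (letters CACGTG) and the ETS motif (letters CCGGAAG).
Pdxdc1: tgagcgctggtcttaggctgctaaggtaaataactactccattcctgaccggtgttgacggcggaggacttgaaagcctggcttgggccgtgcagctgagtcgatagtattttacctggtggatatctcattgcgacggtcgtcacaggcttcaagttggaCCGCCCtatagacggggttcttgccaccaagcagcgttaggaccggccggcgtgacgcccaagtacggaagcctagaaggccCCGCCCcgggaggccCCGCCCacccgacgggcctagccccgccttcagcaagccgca
Bfar: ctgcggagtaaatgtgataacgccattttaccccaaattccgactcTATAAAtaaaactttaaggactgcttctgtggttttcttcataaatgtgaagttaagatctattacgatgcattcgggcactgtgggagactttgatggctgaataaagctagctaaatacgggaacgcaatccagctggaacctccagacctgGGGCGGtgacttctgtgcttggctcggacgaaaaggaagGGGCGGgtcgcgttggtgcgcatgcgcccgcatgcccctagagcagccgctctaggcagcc
Zfp277: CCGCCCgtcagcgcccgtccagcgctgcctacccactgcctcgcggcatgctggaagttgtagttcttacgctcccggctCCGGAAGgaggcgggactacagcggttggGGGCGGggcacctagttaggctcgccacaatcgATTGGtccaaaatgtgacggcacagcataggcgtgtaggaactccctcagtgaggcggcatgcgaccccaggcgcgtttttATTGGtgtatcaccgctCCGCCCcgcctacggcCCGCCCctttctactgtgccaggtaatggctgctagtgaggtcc
Pdxdc1 held 3 matches to the GC box and none to the other motifs, and 24 CG dinucleotides, against a median of 7 over 32851 promoters of the same length. Bfar held 1 TATA box and 2 GC boxes. Zfp277 held 2 CCAAT boxes, 4 GC boxes and 1 ETS motif. Of all promoters, 13.6% held the TATA box, 37.4% the CCAAT box, 35.7% the GC box, 7.15% the E-box and 8.86% the ETS motif. In these 3 windows no matches overlapped. A match describes the letters only.

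Pdxdc1 on 1419327_at had 2 levels with an empty interval between them. It read 9.23 at the lowest, 9.41 at the median and 9.62 at the highest in Pdxdc1-high tumours, against 7.23, 7.50 and 7.86 in Pdxdc1-low tumours. The mean was 9.43 ± 0.11 in Pdxdc1-high tumours (SD, n = 33) and 7.54 ± 0.18 in Pdxdc1-low tumours (SD, n = 19), a difference of 1.89 on the log2 scale or 3.71-fold. The tumours nearest to the split value lay at 9.23 and 7.86, so that 1.37 log2 units held no tumour.

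**Figure D1:**
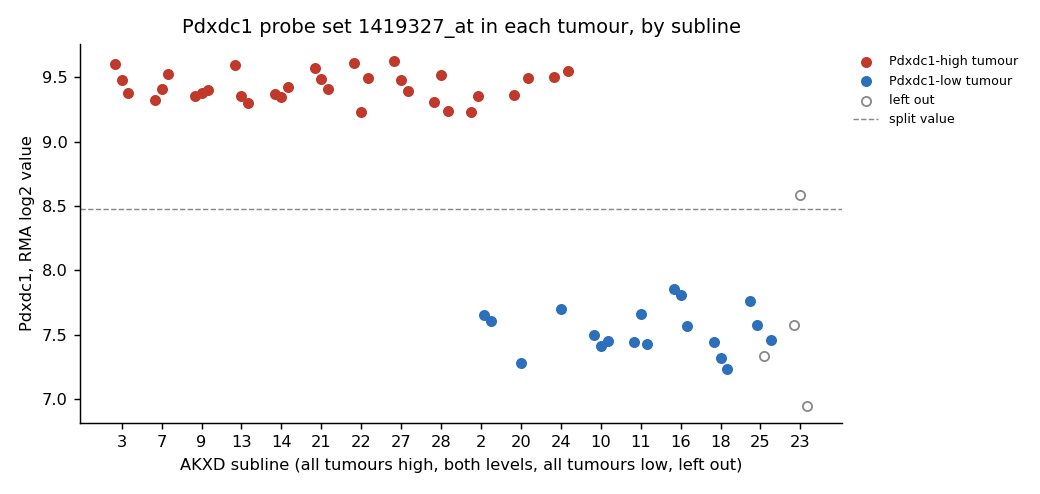
RMA log2 value of Pdxdc1 probe set 1419327_at in each tumour (y axis), by AKXD subline (x axis), with Pdxdc1-high tumours in red, Pdxdc1-low tumours in blue and tumours left out as open circles. The 33 high tumours lie between 9.23 and 9.62 and the 19 low tumours between 7.23 and 7.86, and sublines 2, 20 and 24 hold both levels.

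Of the 17 sublines, 9 held only Pdxdc1-high tumours (sublines 3, 7, 9, 13, 14, 21, 22, 27 and 28), and 5 held only Pdxdc1-low tumours (sublines 10, 11, 16, 18 and 25). Within these 14 sublines, sorted by this same probe set, its SD ran from 0.02 in subline 9 to 0.19 in subline 22. Over all tumours of a level it was 0.11 in Pdxdc1-high and 0.18 in Pdxdc1-low tumours. A small SD within these sublines thus follows from the sorting. Sublines 2, 20 and 24 held both levels. In subline 2 tumours 1 and 2 were high (9.23 and 9.36) and tumours 3 and 4 low (7.65 and 7.61). In subline 20 tumours 1 and 3 were high (9.36 and 9.50) and tumour 2 was low (7.28). In subline 24 tumours 1 and 3 were high (9.50 and 9.55) and tumour 2 was low (7.70). Tumours with the same subline label thus stood on both sides of the split, although an inbred subline is taken to pass the same alleles to all offspring of its cross. Whether the subline labels of these tumours are right was not tested, and every difference given within a subline, like the fit with the subline as a fixed block, rests on them. Pdxdc1-high tumours came from 12 sublines and Pdxdc1-low tumours from 8.

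Of the 3 other Pdxdc1 probe sets 2 were lower, not higher, in Pdxdc1-high tumours, and the third did not pass the test. They report the same gene on the same arrays and were known before to oppose the first, so they are no independent support. On 1452705_at the lowest, median and highest values were 8.19, 8.37 and 8.65 in Pdxdc1-high tumours, against 8.86, 9.00 and 9.20 in Pdxdc1-low tumours. The groups did not overlap. The difference was -0.64 ± 0.03 (SE; limma adjusted p = 3.48e-21), or 1.56-fold lower in Pdxdc1-high tumours, and of 22625 probe sets tested on MOE430A this was the only one whose groups did not overlap (0.00442%).

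On 1436372_a_at the values were 7.84, 8.27 and 8.47 in Pdxdc1-high tumours, against 8.28, 8.53 and 8.88 in Pdxdc1-low tumours. The ranges overlapped, and the difference was -0.30 ± 0.05 (SE; limma adjusted p = 0.000197). This call was lost over all 56 tumours (-0.27; limma adjusted p = 0.206) and with the subline as a fixed block (-0.26 ± 0.11 SE; limma adjusted p = 0.997). Within subline 2 its difference was -0.09 and the high and low tumours overlapped, and it was -0.29 in subline 20 and -0.49 in subline 24. On 1428200_a_at the mean was 6.47 ± 0.11 in Pdxdc1-high tumours and 6.59 ± 0.13 in Pdxdc1-low tumours (SD; difference -0.12 ± 0.04 SE; limma adjusted p = 0.595). In the 3 sublines with both levels, the high minus low difference of 1452705_at was -0.63 in subline 2, -0.66 in subline 20 and -0.63 in subline 24. Within a level the correlation of 1452705_at with 1419327_at was 0.17 over the 33 Pdxdc1-high tumours and -0.47 over the 19 Pdxdc1-low tumours, given as a description of values that share an array.

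**Figure D2:**
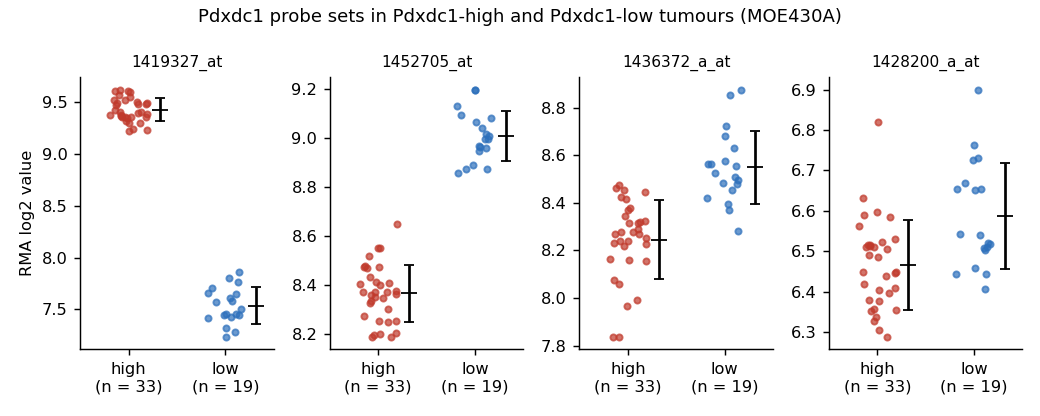
RMA log2 values (y axes, which do not start at 0) of the 4 Pdxdc1 probe sets on MOE430A in Pdxdc1-high (red, left) and Pdxdc1-low tumours (blue, right), with 1 point per tumour and a bar for the mean and SD. Probe set 1419327_at made the split, and 1452705_at has the opposite order with no overlap (8.19 to 8.65 in high tumours, 8.86 to 9.20 in low tumours).

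Few other probe sets differed. Of 22625 tested on MOE430A, 9 were called at an adjusted p under 0.05 (0.0398%), 7 of them higher in Pdxdc1-high tumours (0.0309%) and 2 lower (0.00884%), the 2 lower ones being those of Pdxdc1. On MOE430B 2 of 22511 were called (0.00888%), 1 in each direction (0.00444% each). At an unadjusted p under 0.05 there were 1553 on MOE430A (6.86%) and 1198 on MOE430B (5.32%). Tumours of a subline are related, and the fit treated the subline as a random block. The block weighed little, with an estimated correlation of 0.05 on MOE430A and 0.02 on MOE430B. Without it 9 and 2 were called as well. Most sublines held 1 level only, so their tumours are not independent with respect to the split, and small p-values overstate the evidence. With 1 mean per subline and level (12 high and 8 low), 6 were called on MOE430A and 0 on MOE430B. With all 56 tumours 6 were called on MOE430A and 1 on MOE430B.

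The chromosome 16 genes beside Pdxdc1 were compared first, since the split is by a gene of that chromosome. The 20 measured genes on each side of Pdxdc1 in RefSeq order had 82 probe sets, 47 on MOE430A (29 genes) and 35 on MOE430B (21 genes). None of the 47 on MOE430A was called, and 7 had an unadjusted p under 0.05 (14.9%, against 6.86% of all tested), 6 higher and 1 lower in Pdxdc1-high tumours. Their differences ran from -0.11 to 0.20. On MOE430B 1 of 35 was called, and 6 had an unadjusted p under 0.05 (17.1%, against 5.32% of all tested), 3 higher and 3 lower. The remaining probe sets of chromosome 16 had 0 called on both arrays, with 66 of 671 on MOE430A (9.84%) and 41 of 506 on MOE430B (8.10%) at an unadjusted p under 0.05.

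The called neighbour was Bfar, which encodes a RING-domain ubiquitin ligase of the endoplasmic reticulum that protects cells from death. It lies 5 measured genes before Pdxdc1. Probe set 1429165_at, which the platform annotation lists as 3110001I22Rik, was assigned to Bfar through a RefSeq synonym after its values had been seen. It read 6.29, 6.54 and 6.87 at the lowest, median and highest in Pdxdc1-high tumours, against 5.85, 6.33 and 6.61 in Pdxdc1-low tumours. The ranges overlapped. The difference was 0.26 ± 0.05 (SE; limma adjusted p = 0.00743), with 26 of 33 high tumours above and 14 of 18 low tumours below the mean of the groups' means.

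Bfar has 3 further probe sets on MOE430A, with differences of 0.09, 0.09 and 0.02, of which none was called (limma adjusted p = 0.703, 0.722 and 0.868). The Bfar call on MOE430B was lost without subline 2 (0.26 ± 0.05; limma adjusted p = 0.0590), without replicate 1 (0.29; limma adjusted p = 0.198), without replicate 2 (0.18; limma adjusted p = 0.892) and with 1 mean per subline and level (0.29; limma adjusted p = 0.308). The call was also lost with a fixed subline block, a replicate block, all 56 tumours and without the sublines with both levels. Within those sublines the high tumours were above the low ones on 1429165_at, by 0.34 (subline 2), 0.56 (subline 20) and 0.19 (subline 24). The other Bfar probe sets had the opposite sign within subline 2 (-0.19 on 1426489_s_at, -0.12 on 1426490_at and -0.08 on 1426488_at). Their differences were positive within subline 20 (0.17, 0.22 and 0.03) and subline 24 (0.35, 0.14 and 0.10). High and low tumours overlapped on 1426488_at in sublines 2 and 20.

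The genes next to Pdxdc1 did not pass the test. Ntan1, an amidase that prepares proteins with a terminal asparagine for degradation, lies directly before it and read 9.57 ± 0.13 in Pdxdc1-high tumours and 9.46 ± 0.13 in Pdxdc1-low tumours (SD; difference 0.11 ± 0.04 SE; limma adjusted p = 0.683). Rrn3, an initiation factor of RNA polymerase I, has 1 probe set that is present on both arrays, and its differences were 0.00 ± 0.05 on MOE430A and -0.01 ± 0.05 on MOE430B (SE). Mpv17l, a relative of the mitochondrial protein Mpv17, lies directly after Pdxdc1 and read 7.17 ± 0.09 in Pdxdc1-high tumours and 7.17 ± 0.12 in Pdxdc1-low tumours (SD).

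Further neighbours with an unadjusted p under 0.05 and no call lay in both directions. Those with negative differences were 2610020C07Rik on 1430618_at, whose p was the smallest of the uncalled neighbours (-0.12 ± 0.04), Ube2v2 on 1429132_at (-0.08 ± 0.03), Myh11 on 1418122_at (-0.07 ± 0.03) and A930007A09Rik on 1439547_at (-0.07 ± 0.03). Myh11 encodes a smooth muscle myosin, and its other probe set 1448962_at had the opposite sign (0.09 ± 0.10). Ube2v2, a partner of a ubiquitin-conjugating enzyme, had the opposite sign on its MOE430A probe set 1417984_at (0.11 ± 0.05). Positive differences included Parn, Marf1, Prkdc, Cebpd and Gspt1. Parn differed by 0.13 ± 0.06 on 1437334_x_at and by 0.02 ± 0.04 on 1425422_a_at. Marf1, a regulator of meiosis in mouse oocytes, differed by 0.21 ± 0.08 on 1 of its 3 MOE430B probe sets. Prkdc, the catalytic subunit of the DNA-dependent protein kinase, differed by 0.12 ± 0.05 on 1451576_at. Cebpd, a transcription factor of the C/EBP family, differed by 0.20 ± 0.10 on 1423233_at, the largest difference among the MOE430A neighbours. On its other probe set 1456605_at it differed by 0.03 ± 0.04. Gspt1, a translation release factor, differed by 0.15 ± 0.05 on 1435000_at of MOE430B, 1 of its 6 probe sets (SEs throughout). The other Gspt1 probe sets differed by 0.11 and 0.06 on MOE430B and by -0.03 to 0.00 on MOE430A. Beyond the neighbours, Coro7, a coronin of the Golgi apparatus, had the smallest adjusted p of the chromosome on MOE430B, at 0.15 ± 0.03 (SE; limma adjusted p = 0.163).

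**Figure D3:**
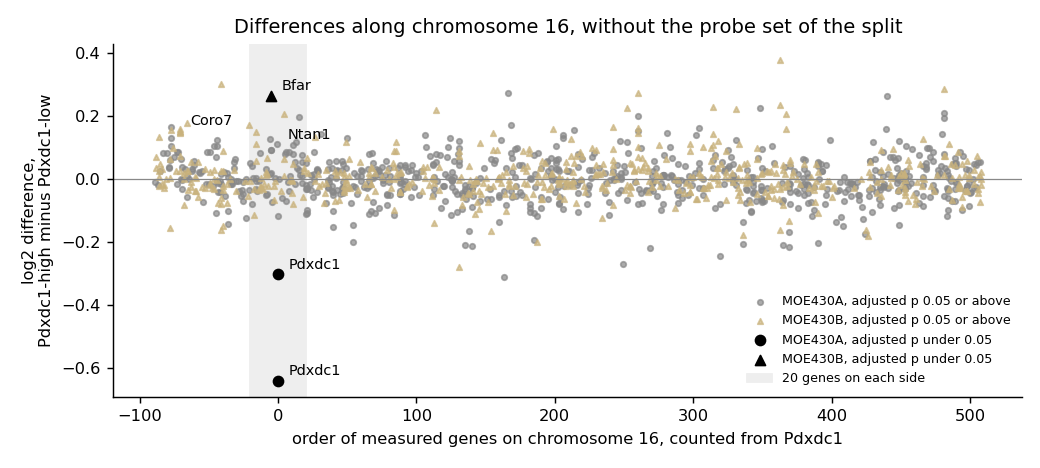
Difference in log2 value, Pdxdc1-high minus Pdxdc1-low (y axis), of each chromosome 16 probe set on MOE430A (circles) and MOE430B (triangles), by the order of measured genes counted from Pdxdc1 (x axis). Black symbols passed the test: 2 Pdxdc1 probe sets at -0.64 and -0.30 and Bfar at 0.26, inside the grey band of 20 genes on each side.

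On other chromosomes the called genes were Adi1, Zfp277, Pik3cg and Sypl, all on chromosome 12 and all higher in Pdxdc1-high tumours. Adi1 is the acireductone dioxygenase of the methionine salvage pathway. Its probe set 1438758_at read 8.49, 8.77 and 8.98 at the lowest, median and highest in Pdxdc1-high tumours, against 7.54, 7.85 and 8.66 in Pdxdc1-low tumours. All 33 high tumours lay above 18 of the 19 low tumours. The difference was 0.85 ± 0.05 (SE; limma adjusted p = 1.56e-20), or 1.81-fold.

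Adi1 was also called on 1438759_x_at, by 0.29 ± 0.04 (SE; limma adjusted p = 6.47e-07), with means of 9.38 ± 0.12 in Pdxdc1-high tumours and 9.09 ± 0.13 in Pdxdc1-low tumours (SD). On 1449076_x_at it read 7.08 ± 0.13 in Pdxdc1-high tumours and 7.12 ± 0.13 in Pdxdc1-low tumours (SD; limma adjusted p = 0.810). The size of the Adi1 difference thus depended on the probe set, and sets named x_at may by that name also bind transcripts of other genes.

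Zfp277, a zinc finger protein, read 8.59, 8.80 and 9.21 on 1433953_at in Pdxdc1-high tumours, against 7.74, 8.07 and 8.93 in Pdxdc1-low tumours. Again 18 of 19 low tumours lay below every high tumour. The difference was 0.68 ± 0.05 (SE; limma adjusted p = 2.58e-14), or 1.60-fold. Its MOE430B probe set read 8.42 ± 0.16 in Pdxdc1-high tumours and 8.36 ± 0.10 in Pdxdc1-low tumours (SD; limma adjusted p = 0.951).

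Pik3cg, the catalytic subunit of phosphoinositide 3-kinase gamma, which is used mainly by leukocytes, read 7.91, 8.22 and 9.00 on 1422707_at in Pdxdc1-high tumours, against 7.33, 7.71 and 8.13 in Pdxdc1-low tumours. The ranges overlapped between 7.91 and 8.13. The difference was 0.53 ± 0.07 (SE; limma adjusted p = 7.06e-06), or 1.45-fold, and its other probe set did not pass (0.11 ± 0.09; limma adjusted p = 0.779). With the scores of skeletal muscle, adipocytes and both lymphocyte lists as covariates the Pik3cg difference was 0.54 ± 0.08 (SE; limma adjusted p = 1.56e-05), and the scores of macrophages and neutrophils were not entered.

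Sypl, a vesicle membrane protein related to synaptophysin, read 7.27, 7.70 and 8.05 on 1422882_at in Pdxdc1-high tumours, against 7.31, 7.45 and 7.76 in Pdxdc1-low tumours. The ranges overlapped for most of their length. The difference was 0.20 ± 0.04 (SE; limma adjusted p = 0.0346), a call kept in 10 of 30 alternatives. It was lost on leaving out any of sublines 2, 3, 7, 9, 10, 11, 13, 16, 18, 25, 27 and 28, with limma adjusted p from 0.0707 to 0.215, or any replicate number (0.0820 to 0.760). Of its other MOE430A probe sets, 3 differed by -0.03 to 0.04, and on MOE430B 1435082_at differed by 0.28 ± 0.06 (SE; limma adjusted p = 0.214) and 2 others by -0.01 each.

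**Figure D4:**
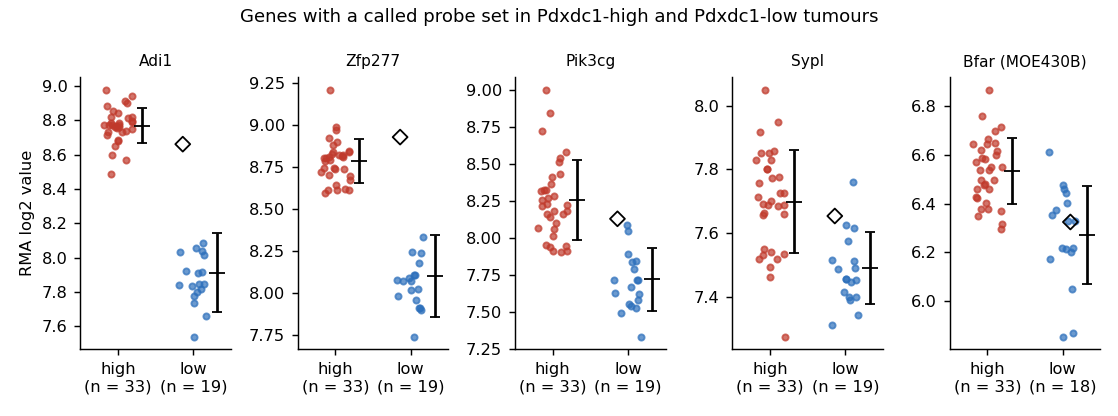
RMA log2 values (y axes, which do not start at 0) of the called probe sets of Adi1, Zfp277, Pik3cg and Sypl on MOE430A and of Bfar on MOE430B in Pdxdc1-high (red, left) and Pdxdc1-low tumours (blue, right), with 1 point per tumour and a bar for the mean and SD. The open diamond is tumour 2 of subline 24, which read 8.66 for Adi1 and 8.93 for Zfp277 among Pdxdc1-low tumours.

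These 4 genes lie near each other on chromosome 12. In RefSeq order over 624 measured genes of that chromosome, Pik3cg was 23, Sypl 28 and Zfp277 53 genes past Adi1. From 5 genes before Adi1 to 5 past Zfp277, a stretch chosen after the values were seen, 5 of 71 MOE430A probe sets were called and 15 had an unadjusted p under 0.05 (21.1%, against 6.86% of all tested). The called genes Adi1 and Zfp277 set its ends, so the called probe sets are in both counts by choice and raise this share. On MOE430B 0 of 69 in the stretch were called by limma and 5 had an unadjusted p under 0.05 (7.25%, against 5.32% of all tested). The rest of chromosome 12 had 0 called, with 50 of 603 probe sets on MOE430A (8.29%) and 37 of 552 on MOE430B (6.70%) at an unadjusted p under 0.05.

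**Figure D5:**
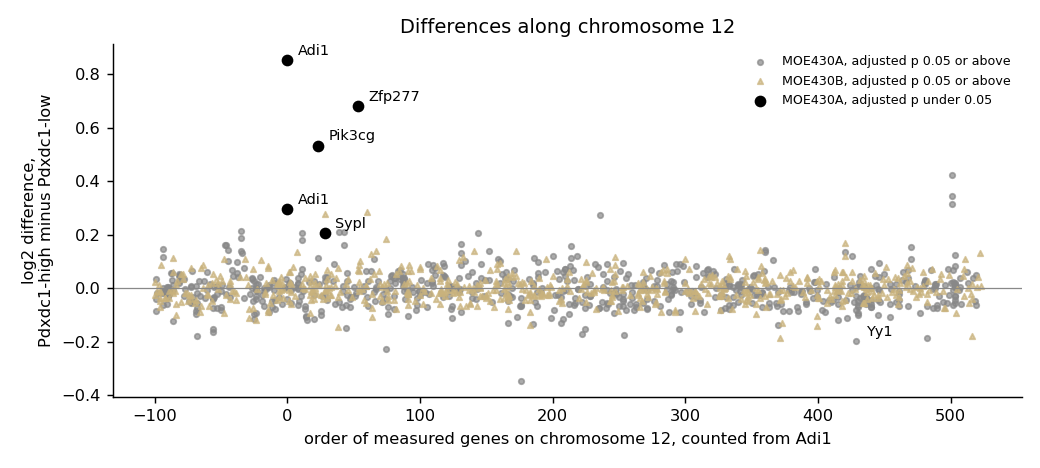
Difference in log2 value, Pdxdc1-high minus Pdxdc1-low (y axis), of each chromosome 12 probe set on MOE430A (circles) and MOE430B (triangles), by the order of measured genes counted from Adi1 (x axis). The 5 black points passed the test: Adi1 at 0.85 and 0.29, Pik3cg at 0.53, Sypl at 0.20 and Zfp277 at 0.68.

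Tumour by tumour, Adi1 and Zfp277 stood at the level of Pdxdc1 on 1419327_at in 51 of 52 tumours, where each gene's levels were parted at its widest gap. The exception for both was tumour 2 of subline 24, which read 7.70 for Pdxdc1 on 1419327_at and 9.09 on 1452705_at, as Pdxdc1-low tumours did, but 8.66 for Adi1 and 8.93 for Zfp277. In subline 2, Adi1 was higher in the high tumours by 0.88 and Zfp277 by 0.73. In subline 20 these differences were 0.95 and 0.79. In subline 24 they were 0.18 and -0.07. The same tumours also differed at genes on other chromosomes, so that these contrasts do not isolate the reading on 1419327_at. H2-D1 on 1450170_x_at differed by 3.65 in subline 2 and by -3.90 in subline 20. On its probe set 1425614_x_at the differences were -4.33 and 4.37, so the direction for H2-D1 depended on the probe set. Mtmr9 on 1452254_at differed by -0.84, -1.26 and 1.02 in sublines 2, 20 and 24. Paip1 on 1425521_at differed by -1.67 in subline 2, and Cap1 on 1417462_at by 0.91 in subline 20 and -0.95 in subline 24. With the subline as a fixed block, which compares tumours within these 3 sublines, Adi1 on 1438758_at was still called, and Zfp277 (0.52 ± 0.10) and Pik3cg (0.38 ± 0.16) were not (SE; limma adjusted p = 0.0674 and 0.997).

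Over the 52 tumours on MOE430A, the genes most like Pdxdc1 were Adi1 (0.95), Zfp277 (0.87), Pik3cg (0.73), Sypl (0.56) and Yy1 (-0.56). Likeness was the Pearson correlation of a gene's most similar probe set with 1419327_at, a description since the tumours fall into 2 groups. All 5 genes are on chromosome 12. However, 1418701_at and 1416153_at (0.57 each), with no single gene assigned, came before Sypl. The next gene after Yy1 was Pold3 of chromosome 7, close to it at 0.55. Yy1, a zinc finger transcription factor, lies 429 genes past Adi1. It read 8.02 ± 0.18 in Pdxdc1-high tumours and 8.22 ± 0.10 in Pdxdc1-low tumours (SD) on 1457834_at, a difference that did not pass (-0.20 ± 0.05 SE; limma adjusted p = 0.102).

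The other 3 called probe sets have no single gene assigned. On MOE430A, 1418701_at was higher in Pdxdc1-high tumours by 0.44 ± 0.08 and 1416153_at by 0.29 ± 0.06 (SE; limma adjusted p = 0.00714 and 0.0161). The first call was kept in 25 of 30 alternatives, and its losses included those without replicate 1 or 2 (limma adjusted p = 0.390 and 0.591). The second was kept in 17 of 30. Its losses included those without replicate 1, 2 or 3 or without any of sublines 2, 7, 10, 11, 16, 18 and 20 (limma adjusted p = 0.0510 to 0.396). On MOE430B, 1441848_at read 7.14 ± 0.13 in Pdxdc1-high tumours and 7.44 ± 0.20 in Pdxdc1-low tumours (SD; difference -0.31 ± 0.05 SE; limma adjusted p = 0.000547). This call was lost without replicate 1 or 2 (limma adjusted p = 0.198 and 0.0691). It was also lost with 1 mean per subline and level and without the sublines with both levels, which are sublines 2, 20 and 24. Within sublines 2, 20 and 24 the difference of 1441848_at was -0.30, -0.56 and -0.77.

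Levels of 6 other genes that part these tumours into groups are set beside Pdxdc1, each parted at its widest gap. For H2-D1, which encodes a classical antigen-presenting molecule, 18 of 33 Pdxdc1-high and 10 of 19 Pdxdc1-low tumours were at the upper level of 1450170_x_at. On 1425614_x_at of H2-D1, which ran the other way, 15 of 33 Pdxdc1-high and 9 of 19 Pdxdc1-low tumours were at the upper level. For Uqcr10, a subunit of mitochondrial complex III, 15 of 33 Pdxdc1-high and 8 of 19 Pdxdc1-low tumours were at the upper level of 1434340_at. For Paip1, a partner of the poly(A)-binding protein in translation, it was 7 of 33 Pdxdc1-high and 9 of 19 Pdxdc1-low tumours on 1425521_at. For Mtmr9, a myotubularin-related protein, it was 5 of 33 Pdxdc1-high and 9 of 19 Pdxdc1-low tumours on 1452254_at. For Cap1, an actin-binding protein, it was 23 of 33 Pdxdc1-high and 15 of 19 Pdxdc1-low tumours on 1417462_at.

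For Pdk1, a kinase that inhibits pyruvate dehydrogenase, it was 13 of 33 Pdxdc1-high and 17 of 19 Pdxdc1-low tumours on 1423748_at. The Pdk1 difference there did not pass the test (-0.37; limma adjusted p = 0.266), and neither did any other probe set of these 6 genes.

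Genes that use or make pyridoxal phosphate did not pass the test. Of the vitamin B6 pathway 6 of 7 genes were measured, on 10 probe sets, with 0 called by limma and 0 at an unadjusted p under 0.05. Pdxk, the kinase that phosphorylates vitamin B6, read 9.38 in Pdxdc1-high tumours and 9.30 in Pdxdc1-low tumours on average (difference 0.08 ± 0.05 SE). Of a list of pyridoxal-dependent decarboxylases and related proteins 11 of 12 were measured on 23 probe sets, with 0 called. At an unadjusted p under 0.05 there was 1, that of Azin2, an antizyme inhibitor related to ornithine decarboxylase (-0.08 ± 0.03 SE). Odc1, ornithine decarboxylase of polyamine synthesis, differed by 0.19 ± 0.10, Sgpl1, sphingosine phosphate lyase, by -0.17 ± 0.10, and Hdc, histidine decarboxylase, by -0.09 ± 0.05 (SE). Of other pyridoxal-dependent enzymes 28 of 31 were measured on 61 probe sets, with 0 called and 3 at an unadjusted p under 0.05. They were led by Scly, selenocysteine lyase, at 0.23 ± 0.08, Got2, the mitochondrial aspartate transaminase, at -0.13 ± 0.05, and Abat, GABA transaminase, at -0.11 ± 0.05 (SE). The median differences of the 3 lists, by each gene's brightest probe set, were 0.06, -0.01 and 0.01, beside -0.00 over all probe sets of both arrays.

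Markers of the cell types a tumour sample can hold were likewise without a call. For luminal epithelium 14 of 14 genes were measured on 25 probe sets, with 0 called and 0 at an unadjusted p under 0.05, and Elf5, an alveolar transcription factor, differed by -0.21 ± 0.11 (SE). For basal and myoepithelial cells 10 of 10 were measured on 22 probe sets, with 0 called. At an unadjusted p under 0.05 there were 4, against 2751 of 45136 over all probe sets of both arrays. Lower were Krt14, a basal keratin (-0.10 ± 0.04), Trp63 (-0.08 ± 0.04) and Myh11 (-0.07 ± 0.03), and higher was Oxtr, the oxytocin receptor (0.24 ± 0.09 SE). By each gene's brightest probe set 7 genes were higher and 3 lower in Pdxdc1-high tumours, with a median difference of 0.05. Milk proteins, adipocytes, T cells, B and plasma cells, macrophages, neutrophils, endothelium, fibroblasts, skeletal muscle, cell cycle and interferon response each had 0 called by limma and 0 at an unadjusted p under 0.05. Their median differences lay between -0.07 for milk proteins and 0.09 for adipocytes. The smallest adjusted p in any list was 0.703.

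The leukocyte lists had overlapping scores in the groups, a score being the average deviation of a list's genes from their own mean log2 values. Macrophage scores ran from -0.87 to 0.72 in Pdxdc1-high tumours and from -0.65 to 0.31 in Pdxdc1-low tumours. T cell scores ran from -0.22 to 0.35 in Pdxdc1-high tumours and from -0.20 to 0.31 in Pdxdc1-low tumours. Muscle scores had the widest range, -2.80 to 2.74 in Pdxdc1-high tumours and -2.66 to 2.24 in Pdxdc1-low tumours. With the scores of skeletal muscle, adipocytes and both lymphocyte lists as covariates for every probe set, 9 were called on MOE430A and 5 on MOE430B. The difference was then -0.65 for Pdxdc1 on 1452705_at, 0.84 for Adi1 on 1438758_at, 0.69 for Zfp277 and 0.27 for Bfar on 1429165_at, all 4 still called, while Sypl on 1422882_at was at 0.20 (limma adjusted p = 0.0652) and not called. The part of macrophages and the other cell types was not tested.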

How the data were processed

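Total RNA of 56 PyMT mammary tumours was measured on Affymetrix MOE430A and MOE430B arrays. The authors deposited RMA values on the log2 scale, per the submitters' processing notes. RMA's version, the genome build and how probe sets were defined are each not given in the sources used here. MOE430A and MOE430B values were used as deposited and tested apart. The values came with neither counts nor detection calls. The Pdxdc1-high arrays stand for 12 sublines and the Pdxdc1-low arrays for 8, and arrays of a subline are not independent.

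Without 64 control probe sets each, there were 22626 on MOE430A and 22511 on MOE430B, and the probe set of the split was not tested. Symbols came from the platform annotation, updated through the RefSeq gene table (GRCm38.p6), which also gave the order of genes. On MOE430A 20380 probe sets had 1 symbol, 691 several and 1555 none, and on MOE430B 14661, 245 and 7605. A match by RefSeq synonym placed 20 and 39 of these.

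Pdxdc1-high and Pdxdc1-low tumours were compared with limma 3.58.1 in R 4.3.3 (lmFit and eBayes), with the subline as a random block (duplicateCorrelation; estimated correlation 0.05 on MOE430A). Adjustment was by Benjamini-Hochberg over every probe set tested on that array type, with calls made at an adjusted p under 0.05. Tumours of a subline were separate animals by their labels. The scripts were tested on simulated data.

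The members, lists and tests were chosen with earlier results of these data known. Named were all Pdxdc1 probe sets, called genes, up to 4 members of each list by p, the genes of 7 other splits of the tumours (H2-D1, Uqcr10, Paip1, Mtmr9, Adi1, Pdk1 and Cap1) and the 5 genes most like Pdxdc1. Other neighbours and Coro7 were chosen after their values were seen. Alternatives left out the block, used 1 mean per subline and level, a fixed subline block, a replicate block, quantile normalization or composition scores, left out dim probe sets (mean under 6), sublines with both levels, single replicates or single sublines, or added the 4 tumours left out.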

Additional observations from a re-analysis of the deposited data

Results flagged for a closer look

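Zfp277 differed in direction between sublines that held both levels of Pdxdc1. Its high tumours lay above its low tumours by 0.73 in subline 2 and by 0.79 in subline 20, whereas in subline 24 the difference was -0.068, with both high tumours below the low one. Sypl on 1422882_at was higher in the high tumours by 0.067 in subline 20, and the difference was -0.12 in subline 24. With 1 low tumour in sublines 20 and 24, these differences between sublines were not tested. Only subline 2 had the 4 tumours needed to look for a tumour far from the others. It was examined on 12 probe sets, 0 of which had one, where chance would give about 1 in 20. With 2 high and 2 low tumours in subline 2, a probe set that follows the split could hardly show a single such tumour.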

How the results depend on the processing

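The number of calls on MOE430A was 9 and stayed within 6 to 11 under every alternative except a fixed subline block, which rests on the sublines with both levels and gave 4. It was 6 to 8 on leaving out a replicate and 7 to 11 on leaving out a subline. Calls on MOE430B, 2 at first, were 5 with composition scores, 1 with a replicate block or all 56 tumours, and 0 with 1 mean per subline and level (1174 at an unadjusted p under 0.05) or without the sublines with both levels (992). They were 0 to 3 without a replicate (0 without replicate 1, with 1620 at an unadjusted p under 0.05) and 1 to 3 without a subline (1 without subline 2). Chromosome 16 neighbours had 0 calls on MOE430A throughout. The 1 on MOE430B became 0 with 1 mean per subline and level, a fixed subline block, a replicate block, all 56 tumours or without sublines with both levels, and was 0 to 1 without a replicate or a subline. The cause was not tested.

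Over 30 alternatives each, 1438758_at of Adi1 and 1452705_at of Pdxdc1 were called in 30, 1433953_at of Zfp277, 1422707_at of Pik3cg and 1438759_x_at of Adi1 in 29, and 1436372_a_at of Pdxdc1 in 28. Under the fixed subline block Zfp277 had 0.52 (limma adjusted p = 0.0674) and Pik3cg 0.38 (limma adjusted p = 0.997). Bfar was called in 22 (limma adjusted p 0.000697 to 0.892), Sypl in 10, 1418701_at in 25, 1416153_at in 17 and 1441848_at in 26. None of these differences changed sign under the 30 alternatives. Replicate numbers did not pair tumours: the median correlation of deviations was 0.00 between same-numbered tumours of different sublines and -0.00 between others on MOE430A. The replicate block gave 9 calls on MOE430A and 1 on MOE430B.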

Other observations

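Tumours left out of the split had these values. Tumour 1 of subline 23 read 7.58 for Pdxdc1 on 1419327_at and 9.32 on 1452705_at, 8.32 for Adi1 and 9.04 for Zfp277. Tumour 2 of subline 23 read 8.59 and 8.75 on the same Pdxdc1 probe sets, and tumour 3 read 6.95 and 6.75. Tumour 3 of subline 25 read 7.34 and 9.03, with 7.93 for Adi1 and 7.54 for Zfp277. The largest difference on MOE430A apart from the probe set of the split did not pass the test: 1425583_at, with no single gene assigned, differed by 2.00 ± 0.45 (SE; limma adjusted p = 0.102), with means of 7.72 ± 1.98 in Pdxdc1-high tumours and 5.75 ± 0.66 in Pdxdc1-low tumours (SD).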
